A study of Mus musculus with 14 samples.

Results

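The proneural basic helix-loop-helix (bHLH) genes Neurog1, Neurog2, Neurog3, Neurod1, Atoh1, Olig1, Olig2, Olig3 and Bhlhe22 were followed through 7 groups of cultured mouse embryonic stem cells. They were chosen by symbol, with earlier results of these data known. All 9 were among the 37991 Ensembl gene IDs of each of the 2 deposited count tables. Polyadenylated RNA was sequenced in 14 libraries, 2 to a group. All cells carried the label mESC and the J1 129S4/SvJae background. Experiment 1 had 4 groups: Dnmt-TKO cells given the PRC1 inhibitor PRT4165 (TKO inhibitor cells), Dnmt-TKO cells given the solvent DMSO (TKO vehicle cells), wild-type cells given PRT4165 (wild-type inhibitor cells) and wild-type cells given DMSO (wild-type vehicle cells). Experiment 2 had 3 groups with no listed treatment: Tet1-KO Dnmt-TKO cells, Dnmt-TKO cells and wild-type cells. Dnmt-TKO cells lack the DNA methyltransferases Dnmt1, Dnmt3a and Dnmt3b, the Tet1-KO line lacks in addition the 5-methylcytosine dioxygenase Tet1, and PRC1 is a Polycomb complex that places ubiquitin on a histone. The sources used here do not state the dose or duration of the inhibitor, the number of clones behind each line or the age of the cultures. A genotype cannot be told apart from the single line that carries it.

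Proneural bHLH factors pair with the widely expressed E proteins, bind E-box sequences and start neuronal differentiation in progenitors of the embryonic nervous system. They raise Notch ligands, and Notch signalling in neighbouring cells raises Hes repressors that hold the proneural genes down, while Id proteins capture the E proteins. Undifferentiated stem cells normally express these genes little. Many of their promoters are classical examples of CpG-rich promoters occupied by Polycomb complexes in such cells.

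Promoter sequence is shown for 4 of the genes that differed between groups and had a promoter entry. It is shown because the mutant lines lack DNA methyltransferases and the inhibitor is directed at PRC1. DNA methylation was not measured here, and the part of promoter sequence in the results was not tested. The windows end at the base before the transcription start in RefSeq's GRCm38.p6 annotation and read from 5′ to 3′ on the gene's strand, with every CG dinucleotide, the site of DNA methylation, in capitals. The counts were made on another build, mm9, so these coordinates are not those of the reads. Neurog2 (chr3:127632886-127633135, plus strand) had fewer CpG sites than the other genes shown, which were Neurog1 (chr13:56252181-56252430, minus strand), Atoh1 (chr6:64728875-64729124, plus strand) and Neurod1 (chr2:79456637-79456886, minus strand).
Neurog2: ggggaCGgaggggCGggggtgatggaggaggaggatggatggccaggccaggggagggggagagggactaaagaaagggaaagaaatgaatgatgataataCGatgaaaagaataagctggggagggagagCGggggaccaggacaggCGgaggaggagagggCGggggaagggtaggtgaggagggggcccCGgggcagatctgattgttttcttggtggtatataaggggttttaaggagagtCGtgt
Neurog1: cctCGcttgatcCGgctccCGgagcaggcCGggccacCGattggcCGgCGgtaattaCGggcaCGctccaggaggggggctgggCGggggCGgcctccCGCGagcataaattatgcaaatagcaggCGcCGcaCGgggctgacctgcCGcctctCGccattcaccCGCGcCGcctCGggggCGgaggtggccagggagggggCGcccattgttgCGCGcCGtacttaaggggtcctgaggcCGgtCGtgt
Atoh1: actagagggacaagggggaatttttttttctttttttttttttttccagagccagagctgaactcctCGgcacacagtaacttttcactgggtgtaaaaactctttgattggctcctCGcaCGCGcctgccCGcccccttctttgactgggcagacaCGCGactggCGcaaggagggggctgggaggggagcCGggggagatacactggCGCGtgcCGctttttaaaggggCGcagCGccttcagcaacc
Neurod1: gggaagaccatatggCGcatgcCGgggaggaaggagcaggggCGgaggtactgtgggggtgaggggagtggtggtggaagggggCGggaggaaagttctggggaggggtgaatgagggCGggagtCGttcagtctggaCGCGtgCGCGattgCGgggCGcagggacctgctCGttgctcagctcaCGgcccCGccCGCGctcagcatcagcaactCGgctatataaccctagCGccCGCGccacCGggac

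These 250 bases held 8 CpG sites upstream of Neurog2, 29 upstream of Neurog1, 14 upstream of Atoh1 and 22 upstream of Neurod1. The same stretch, not shown, held 22 upstream of Olig2, 18 upstream of Neurog3 and 4 upstream of Olig3. The full window of Neurog2 held 10 CpG sites, above the median of 7 over all mouse promoters. Over the full window of 300 bases, which adds the 50 bases after the start, the ratio of observed to expected CpG was 0.891 for Neurog1, 0.84 for Atoh1, 0.837 for Neurod1, 0.815 for Olig2, 0.57 for Neurog2, 0.547 for Neurog3 and 0.252 for Olig3. The median over 32841 mouse promoters was 0.384, so Olig3 alone of the 7 lay below it. Olig1 and Bhlhe22 had no entry in the promoter table. The E-box letters CANNTG, read on both strands, occurred once each in the windows of Neurog1, Neurog3, Neurod1 and Olig3 and in 72.3% of all promoters. The match in Neurog3 was CAGCTG, which 16.3% of promoters held. The letters TATAAA occurred in the windows of Olig2 and Olig3 and in 13.6% of all promoters. These matches describe letters, not binding.

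**Figure D1:**
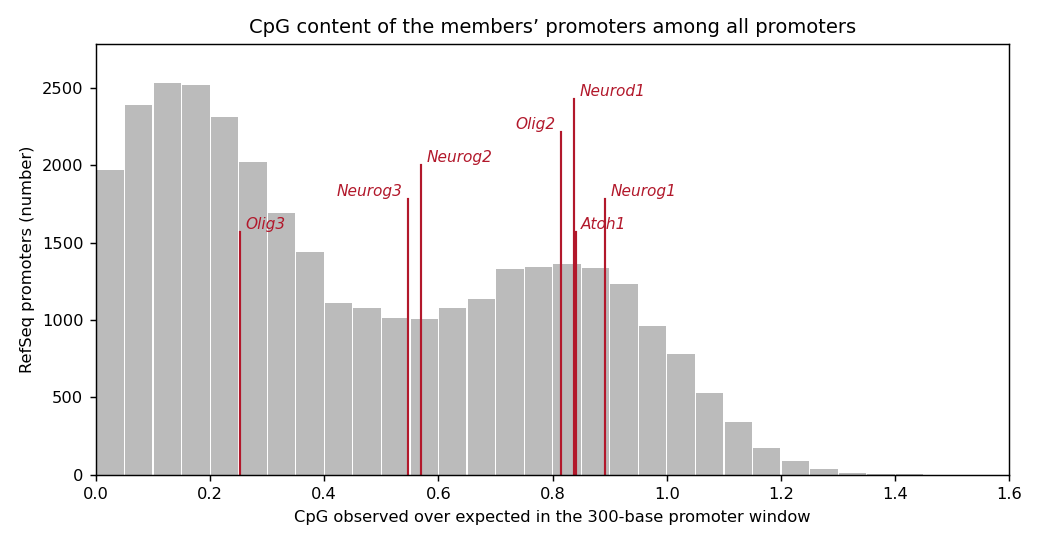
Number of RefSeq promoters (vertical axis) by the ratio of observed to expected CpG in a window of 300 bases (horizontal axis, bars 0.05 wide), with the 7 members that had an entry marked by red lines of arbitrary height. Neurog1, Atoh1, Neurod1 and Olig2 lie between 0.815 and 0.891, Neurog2 and Neurog3 at 0.57 and 0.547, and Olig3 at 0.252.

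Libraries held 25588815 to 37399837 counted reads in experiment 1 and 23354015 to 41844823 in experiment 2. The targeted transcripts were lower in the mutant lines but not absent: the log2 fold changes were −1.75 for Dnmt1, −1.28 for Dnmt3a and −2.14 for Dnmt3b in TKO vehicle against wild-type vehicle cells, and −2.19 for Tet1 in Tet1-KO TKO against TKO cells. Transcripts of a deleted gene can still be counted outside the deleted part. Dnmt3a also had a log2 fold change of −1.04 in Tet1-KO TKO against TKO cells. All 8 pluripotent stem cell markers were detected in every group, with summed levels of 3769 to 3794 CPM (counts scaled to library size) in TKO vehicle libraries and 5063 to 5131 CPM in wild-type vehicle libraries. Neuron markers summed to 389 to 397 CPM in TKO vehicle libraries and 107 to 112 CPM in wild-type vehicle libraries, where Dcx and Snap25 were at 0 reads, and 5 of the 8 tested of 10 listed were called higher in TKO vehicle cells. Neural progenitor markers (5 of the 7 listed were analysed here) summed to 63.6 to 65.8 CPM in TKO vehicle libraries and 22.5 to 27.5 CPM in wild-type vehicle libraries, and 3 of 3 tested were called higher. Trophoblast markers summed to 767 to 799 CPM in TKO vehicle libraries and 68.5 to 77.2 CPM in wild-type vehicle libraries, where Elf5, Prl3d1 and Tpbpa were at 0, and 8 of 8 were called higher. Oligodendrocyte lineage markers summed to 22.9 to 23.2 CPM in TKO vehicle and 19.6 to 21.5 CPM in wild-type vehicle libraries (3 of 7 tested called higher, 2 lower). Pancreatic endocrine markers summed to 18.8 to 19.6 CPM in TKO vehicle and 24.5 to 24.6 CPM in wild-type vehicle libraries (2 of 4 higher, 1 lower), with Gcg and Ins1 at 0 in both groups. Endoderm markers summed to 50.7 CPM in both TKO vehicle libraries and 92.1 to 105 CPM in wild-type vehicle libraries (1 of 7 higher, 4 lower). Fibroblast markers summed to 6.36 to 6.43 CPM in TKO vehicle and 7.55 to 8.25 CPM in wild-type vehicle libraries (3 of 5 higher, 1 lower), where Col3a1, Dcn, Lum and Postn were at 0. The part these markers have in the results below was not tested. In such bulk libraries more cells of a type and more RNA per cell cannot be told apart.

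A gene was called at a Benjamini-Hochberg adjusted p under 0.05 in edgeR's quasi-likelihood test, adjusted over all genes tested. In TKO vehicle cells 6 of the 9 genes (Neurog1, Neurog3, Neurod1, Atoh1, Olig3 and Bhlhe22) were called higher than in wild-type vehicle cells and none lower. Of all 16711 genes tested, 34.8% were called higher in that comparison and 34.2% lower, 69% in all. Neurog1, Neurog2 and Atoh1 had 0 reads in wild-type vehicle cells and Olig2 had 2. These genes passed the filter on low counts through other groups. For them a lower call against wild-type vehicle cells was out of reach or nearly so. The absence of lower calls was thus partly fixed in advance. The shares of all genes depend on the scaling between libraries. With library size only, 7249 genes were called higher and 4173 lower, against 5819 and 5712 with the TMM scaling used here, and 7 of the 9 members were called higher. With the inhibitor in wild-type cells 3 of 9 were called higher and none lower (Neurog2, Neurod1 and Olig2), where 19% of all genes were called higher and 18.7% lower, 37.6% in all. With the inhibitor in TKO cells 3 of 9 were called higher, again Neurog2, Neurod1 and Olig2, and 1 lower, Neurog3, where 19.9% of all genes were called higher and 19.6% lower, 39.5% in all. Neurod1 was the only one of the 9 called higher in both the genotype comparison under vehicle and the inhibitor comparison in wild-type cells, which share their wild-type vehicle libraries. With the inhibitor neuron markers summed to 300 to 327 CPM in TKO cells and 114 to 117 CPM in wild-type cells, and trophoblast markers to 1073 to 1080 CPM in TKO cells and 94.8 to 104 CPM in wild-type cells. With vehicle the neuron sums were 389 to 397 CPM in TKO and 107 to 112 CPM in wild-type cells. Of 8 neuron markers tested, the inhibitor gave 1 higher and 3 lower in TKO cells and 2 higher and 1 lower in wild-type cells. Of 8 trophoblast markers it gave 5 higher in TKO and 4 higher in wild-type cells, none lower. Pluripotent stem cell markers summed to 2773 to 2893 CPM in TKO inhibitor libraries and 3769 to 3794 CPM in TKO vehicle libraries, with 5 of 8 called lower with inhibitor and none higher. In wild-type cells they summed to 4240 to 4423 CPM with inhibitor and 5063 to 5131 CPM with vehicle, with 6 of 8 called lower and none higher. The part of these markers in the inhibitor results was not tested.

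**Figure D2:**
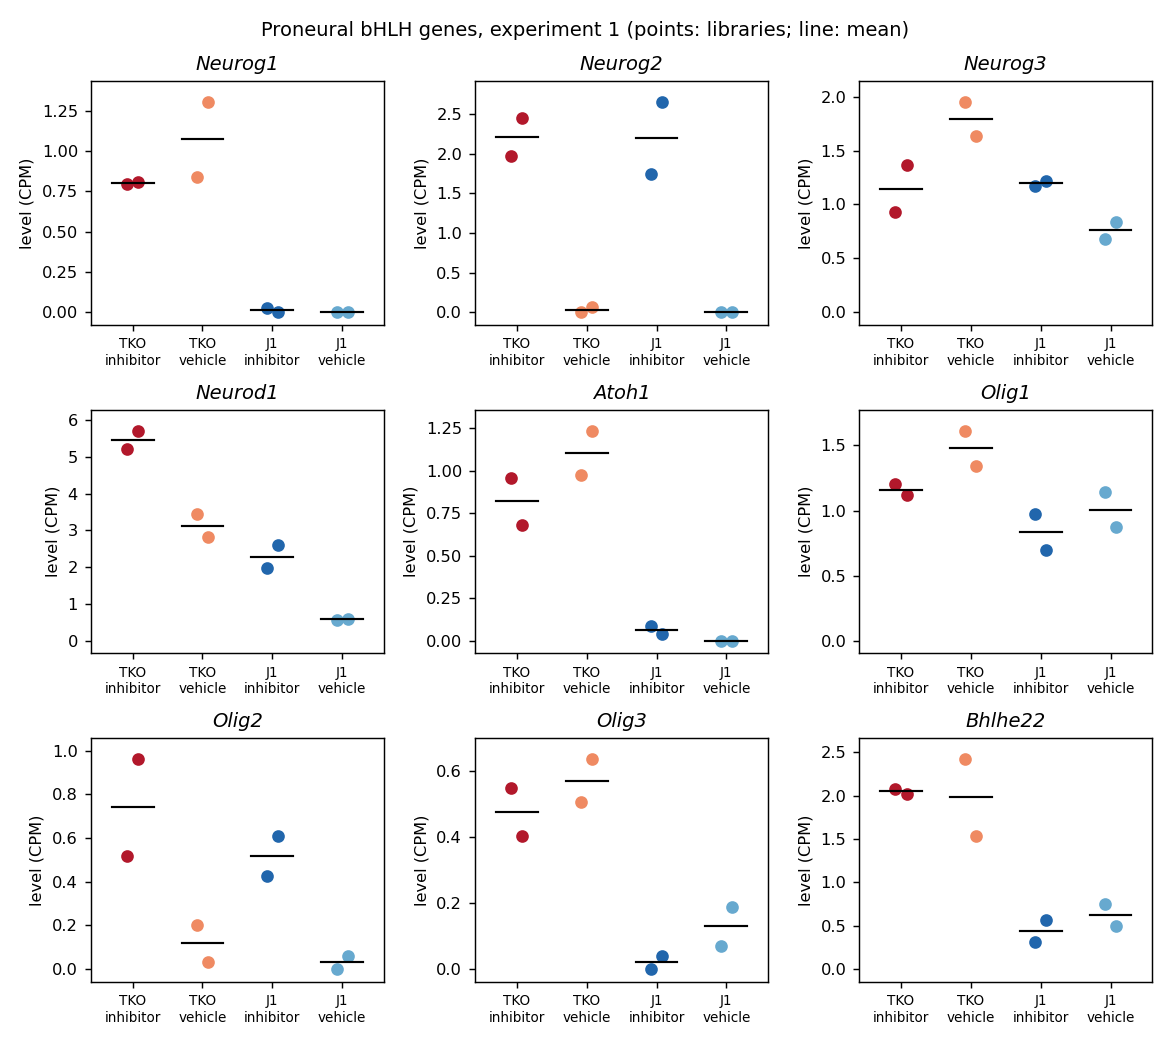
Level of each gene in CPM (vertical axes, each with its own scale) in the 8 libraries of experiment 1, as points for libraries and a line for the mean of 2, in TKO inhibitor, TKO vehicle, wild-type (J1) inhibitor and wild-type vehicle cells. Neurog2 and Olig2 are high in the inhibitor groups, Neurog1, Atoh1, Olig3 and Bhlhe22 in the TKO groups, and Neurod1 averages 5.46 CPM in TKO inhibitor cells, 3.12 CPM in TKO vehicle cells, 2.29 CPM in wild-type inhibitor cells and 0.581 CPM in wild-type vehicle cells.

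Neurog2 starts neurogenesis in the cortex and spinal cord, and its reads were almost all in inhibitor-treated libraries. It had 72 and 79 reads in TKO cells with inhibitor, 0 and 2 in TKO cells with vehicle, 61 and 65 in wild-type cells with inhibitor and 0 and 0 in wild-type cells with vehicle. The inhibitor and vehicle libraries did not overlap in either genotype, and the inhibitor groups of the 2 genotypes overlapped. The means were 2.21 ± 0.341 CPM in TKO inhibitor cells, 0.0335 ± 0.0473 CPM in TKO vehicle cells and 2.19 ± 0.643 CPM in wild-type inhibitor cells (SD, n = 2 each). In TKO cells the ratio of inhibitor to vehicle was 65.5, with a 95% counting interval of 17.8 to 546 that the 2 vehicle reads make wide, and the fitted log2 fold change was 5.88 (SE 0.56, adjusted p = 2.2e-08). That fit gave 4.94 without TKO vehicle replicate 1 and 9.10 without replicate 2, which leaves the vehicle group at 0 reads, and the call held in both. In wild-type cells Neurog2 was at least 42.4-fold higher with inhibitor than with vehicle, counting the vehicle group at a floor of 3 reads (adjusted p = 1.35e-08, edgeR quasi-likelihood). Between the genotypes under inhibitor, TKO over wild type, the ratio was 1.04 with a counting interval of 0.815 to 1.33 (log2 fold change 0.04, SE 0.25, adjusted p = 0.898). Under vehicle, with 2 reads against 0, both genotypes were at or under the floor.

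Neurog1, the close relative of Neurog2 that specifies cranial sensory neurons, followed genotype. It had 29 and 26 reads in TKO cells with inhibitor, 25 and 39 in TKO cells with vehicle, 1 and 0 in wild-type cells with inhibitor and 0 and 0 in wild-type cells with vehicle. All 4 TKO libraries lay above all 4 wild-type libraries. Its mean was 0.801 ± 0.00952 CPM in TKO inhibitor cells and 1.07 ± 0.328 CPM in TKO vehicle cells (SD, n = 2 each). Under vehicle it was at least 21.5-fold higher in TKO than in wild-type cells (adjusted p = 1.32e-07). Under inhibitor the ratio of TKO to wild type was 47.7, resting on 55 reads against 1, with a counting interval of 8.21 to 1918 (log2 fold change 5.27, SE 0.78, adjusted p = 2.31e-06). That log2 value was 7.61 without wild-type inhibitor replicate 1, which leaves 0 wild-type reads, and 4.61 without replicate 2. The inhibitor in TKO cells gave a log2 fold change of −0.42 and no call (adjusted p = 0.354).

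Neurog3, the factor of pancreatic endocrine progenitors, was detected in every group and differed less between groups. It had 34 and 44 reads in TKO cells with inhibitor, 58 and 49 in TKO cells with vehicle, 41 and 30 in wild-type cells with inhibitor and 19 and 27 in wild-type cells with vehicle. The TKO vehicle libraries were the highest and the wild-type vehicle libraries the lowest, and the inhibitor groups lay between them and overlapped. The mean was 1.80 ± 0.220 CPM in TKO vehicle cells and 0.759 ± 0.114 CPM in wild-type vehicle cells (SD, n = 2 each), a log2 fold change of 1.23 (SE 0.29, adjusted p = 0.000533). In TKO cells the inhibitor gave 1.15 ± 0.308 CPM, against 1.80 ± 0.220 CPM with vehicle, a log2 fold change of −0.65 (SE 0.26, adjusted p = 0.0476). That call was lost when any of 5 of the 8 libraries was left out: TKO inhibitor replicate 1 (−0.41, adjusted p = 0.317), TKO vehicle replicate 1 (−0.54, adjusted p = 0.244), TKO vehicle replicate 2 (−0.79, adjusted p = 0.0665), wild-type inhibitor replicate 1 (adjusted p = 0.053) or wild-type inhibitor replicate 2 (adjusted p = 0.0527). It was also lost in DESeq2 (adjusted p = 0.2) and with a replicate block (adjusted p = 0.0553). Neurog3 shares 273 exon bases with Fam241b on the opposite strand, which had 143 to 439 reads a library in experiment 1. Whether the reads were counted by strand is not known here, so reads of the 2 genes cannot be told apart in that stretch. Fam241b had log2 fold changes of −1.36 for TKO vehicle against wild-type vehicle and −0.02 for the inhibitor in TKO cells (adjusted p = 0.941).

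Neurod1 drives differentiation downstream of the neurogenins, in neurons and in pancreatic islets, and was the most abundant of the 9 per length in 2 of the 4 groups. It had 190 and 184 reads in TKO cells with inhibitor, 102 and 84 in TKO cells with vehicle, 69 and 64 in wild-type cells with inhibitor and 16 and 19 in wild-type cells with vehicle. The 4 groups did not overlap in CPM. The means were 5.46 ± 0.362 CPM in TKO inhibitor cells, 3.12 ± 0.439 CPM in TKO vehicle cells, 2.29 ± 0.453 CPM in wild-type inhibitor cells and 0.581 ± 0.0136 CPM in wild-type vehicle cells (SD, n = 2 each). TKO vehicle cells had 5.36 times the level of wild-type vehicle cells (log2 fold change 2.42, SE 0.25, adjusted p = 6.65e-09). The inhibitor raised it 1.74-fold in TKO cells (0.80, SE 0.16, adjusted p = 0.000347) and 3.84-fold in wild-type cells (1.94, SE 0.27, adjusted p = 3.45e-06). TKO inhibitor cells had 9.35 times the level of wild-type vehicle cells (3.22, SE 0.22, adjusted p = 3.85e-12). All 4 of these calls held when any single library was left out. Neurod1 shares 201 exon bases with Cerkl on the same strand, which had 5 to 25 reads a library. It shares 154 with the noncoding gene Gm26755 on the opposite strand, whose ID was not among those counted. Reads from the stretch shared with Cerkl cannot be assigned to 1 gene, and reads of Gm26755 have no count of their own. The part of either in the Neurod1 values was not tested. Cerkl had log2 fold changes of 1.04 for TKO against wild type under vehicle (adjusted p = 0.0746), 1.28 under inhibitor (adjusted p = 0.0263) and 1.19 for TKO inhibitor against wild-type vehicle cells (adjusted p = 0.032), the same direction as Neurod1. For the inhibitor it had 0.15 in TKO cells (adjusted p = 0.818) and −0.09 in wild-type cells (adjusted p = 0.933).

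The effect of the inhibitor on Neurod1 was smaller in TKO than in wild-type cells by 1.14 on the log2 scale (interaction −1.14, SE 0.32, adjusted p = 0.0468). It was the 1 interaction called among the 9, against 3.89% of all genes (1.77% higher, 2.12% lower). The call was lost in 7 of the 8 fits that leave out 1 library, with log2 values of −1.36 to −0.95 and adjusted p-values of 0.0347 to 0.17, and held without wild-type inhibitor replicate 1. It was also lost in DESeq2 (adjusted p = 0.132), with scaling by library size only (adjusted p = 0.0538) and with a replicate block (adjusted p = 0.0545). Neurog3 had an interaction of −1.30 (SE 0.40, adjusted p = 0.0692), and the adjusted p of the other 7 lay between 0.182 and 0.93.

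Atoh1, the factor of cerebellar granule neurons, inner-ear hair cells and secretory cells of the gut, resembled Neurog1. It had 35 and 22 reads in TKO cells with inhibitor, 29 and 37 in TKO cells with vehicle, 3 and 1 in wild-type cells with inhibitor and 0 and 0 in wild-type cells with vehicle. All 4 TKO libraries were above all 4 wild-type libraries. Means were 0.821 ± 0.194 CPM in TKO inhibitor cells, 1.11 ± 0.186 CPM in TKO vehicle cells and 0.0631 ± 0.0317 CPM in wild-type inhibitor cells (SD, n = 2 each). Under vehicle it was at least 22.2-fold higher in TKO than in wild-type cells (adjusted p = 7.71e-08). Under inhibitor the ratio of TKO to wild type was 12.4 with a counting interval of 4.57 to 46.9 (log2 fold change 3.55, SE 0.58, adjusted p = 1.07e-05), and the log2 value was 4.19 without wild-type inhibitor replicate 1. Neither inhibitor comparison was called, with a log2 fold change of −0.42 in TKO cells (adjusted p = 0.339) and 4 reads against 0 in wild-type cells (adjusted p = 0.0789).

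Bhlhe22 encodes a repressor of the Olig branch of the family that acts in the identity of cortical and spinal neurons. It had 76 and 65 reads in TKO cells with inhibitor, 72 and 46 in TKO cells with vehicle, 11 and 14 in wild-type cells with inhibitor and 21 and 16 in wild-type cells with vehicle. The TKO libraries lay above the wild-type libraries with no overlap, at 2.05 ± 0.0439 CPM with inhibitor and 1.98 ± 0.624 CPM with vehicle, against 0.442 ± 0.182 CPM and 0.624 ± 0.179 CPM in wild-type cells (SD, n = 2 each). Its log2 fold change between TKO and wild type was 1.68 under vehicle (SE 0.31, adjusted p = 4.87e-05) and 2.27 under inhibitor (SE 0.33, adjusted p = 1.89e-06). With inhibitor against vehicle the log2 fold change was 0.05 in TKO cells (adjusted p = 0.897) and −0.54 in wild-type cells (adjusted p = 0.341).

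Olig2, which specifies motor neurons and oligodendrocyte precursors, was scarce outside the inhibitor groups. It had 19 and 31 reads in TKO cells with inhibitor, 6 and 1 in TKO cells with vehicle, 15 and 15 in wild-type cells with inhibitor and 0 and 2 in wild-type cells with vehicle. Every inhibitor library was above every vehicle library. The means were 0.741 ± 0.313 CPM in TKO inhibitor cells, 0.118 ± 0.119 CPM in TKO vehicle cells, 0.520 ± 0.130 CPM in wild-type inhibitor cells and 0.0311 ± 0.0440 CPM in wild-type vehicle cells (SD, n = 2 each). In TKO cells the ratio of inhibitor to vehicle was 6.19 with a counting interval of 2.79 to 16.2 (log2 fold change 2.60, SE 0.61, adjusted p = 0.00145). That call was lost without TKO vehicle replicate 2 (1.82, adjusted p = 0.0549), and the value was 4.28 without replicate 1. In wild-type cells the ratio was 15.1 with an interval of 3.84 to 131 (3.78, SE 0.86, adjusted p = 0.00121). The log2 value was 2.96 without wild-type vehicle replicate 1 and 7.0 without replicate 2, which leaves 0 vehicle reads, and the call held in both. Genotype gave no call under vehicle (adjusted p = 0.205) or under inhibitor (0.53, adjusted p = 0.302).

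Olig3, a factor of dorsal neural tube progenitors, followed genotype at low counts. It had 20 and 13 reads in TKO cells with inhibitor, 15 and 19 in TKO cells with vehicle, 0 and 1 in wild-type cells with inhibitor and 2 and 6 in wild-type cells with vehicle. The TKO libraries were all above the wild-type libraries. Under vehicle the mean was 0.570 ± 0.0927 CPM in TKO cells and 0.129 ± 0.0814 CPM in wild-type cells (SD, n = 2 each), a log2 fold change of 2.07 (SE 0.57, adjusted p = 0.0026), or 2.90 without wild-type vehicle replicate 2. Under inhibitor the ratio of TKO to wild type was 28.6, on 33 reads against 1, with an interval of 4.79 to 1164 (log2 fold change 4.53, SE 0.88, adjusted p = 7.81e-05). The log2 value was 3.41 without wild-type inhibitor replicate 1 and 6.94 without replicate 2, which leaves 0 wild-type reads. In wild-type cells the 1 read with inhibitor against 8 with vehicle gave no call (adjusted p = 0.0779). Olig1, its relative that acts in oligodendrocyte maturation, had 44 and 36 reads in TKO cells with inhibitor, 48 and 40 in TKO cells with vehicle, 34 and 17 in wild-type cells with inhibitor and 32 and 28 in wild-type cells with vehicle. It was not called in any comparison of experiment 1, with log2 fold changes between −0.34 and 0.56. Its log2 fold change of 0.56 for TKO against wild type under vehicle (SE 0.28, adjusted p = 0.0782) was called with scaling by library size only (0.71, adjusted p = 0.0279). Olig1 and Olig2 lie on chromosome 16, and Olig1 shares 157 exon bases with Gm15966, which had 0 reads in every library of experiment 1.

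Between TKO inhibitor and wild-type vehicle cells, which differ in both respects, 7 of the 9 were called higher and none lower, where 39.6% of all genes were called higher and 36.7% lower, 76.2% in all. Here too Neurog1, Neurog2 and Atoh1, with 0 reads in wild-type vehicle cells, could not be called lower. The fold was at least 44.1 for Neurog2, at least 16.6 for Atoh1 and at least 16.0 for Neurog1, and Bhlhe22 rose by 1.73 on the log2 scale (SE 0.31, adjusted p = 2.13e-05). Olig2 had a ratio of 21.9 with an interval of 5.75 to 186 (log2 fold change 4.31, SE 0.78, adjusted p = 2.85e-05), and the log2 value was 3.46 without wild-type vehicle replicate 1 and 7.5 without replicate 2. Olig3 had a log2 fold change of 1.82 (SE 0.58, adjusted p = 0.00672), which was lost on leaving out wild-type vehicle replicate 1 (1.33, adjusted p = 0.0916) or TKO inhibitor replicate 1 (1.56, adjusted p = 0.071) and was 2.66 without wild-type vehicle replicate 2. Neurog3 (0.57, adjusted p = 0.0884) and Olig1 (0.22, adjusted p = 0.493) were not called. Between TKO and wild-type cells under inhibitor, a comparison chosen after the data were seen, 5 of the 9 were called higher and none lower, where 36.2% of all genes were called higher and 34% lower, 70.2% in all. Those 5 were Neurog1, Neurod1, Atoh1, Olig3 and Bhlhe22. Neurod1 had a log2 fold change of 1.28 there (SE 0.17, adjusted p = 5.2e-07). Wild-type inhibitor cells had 1 read of Neurog1, 1 of Olig3 and 4 of Atoh1, which left these genes little room for a lower call.

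**Figure D3:**
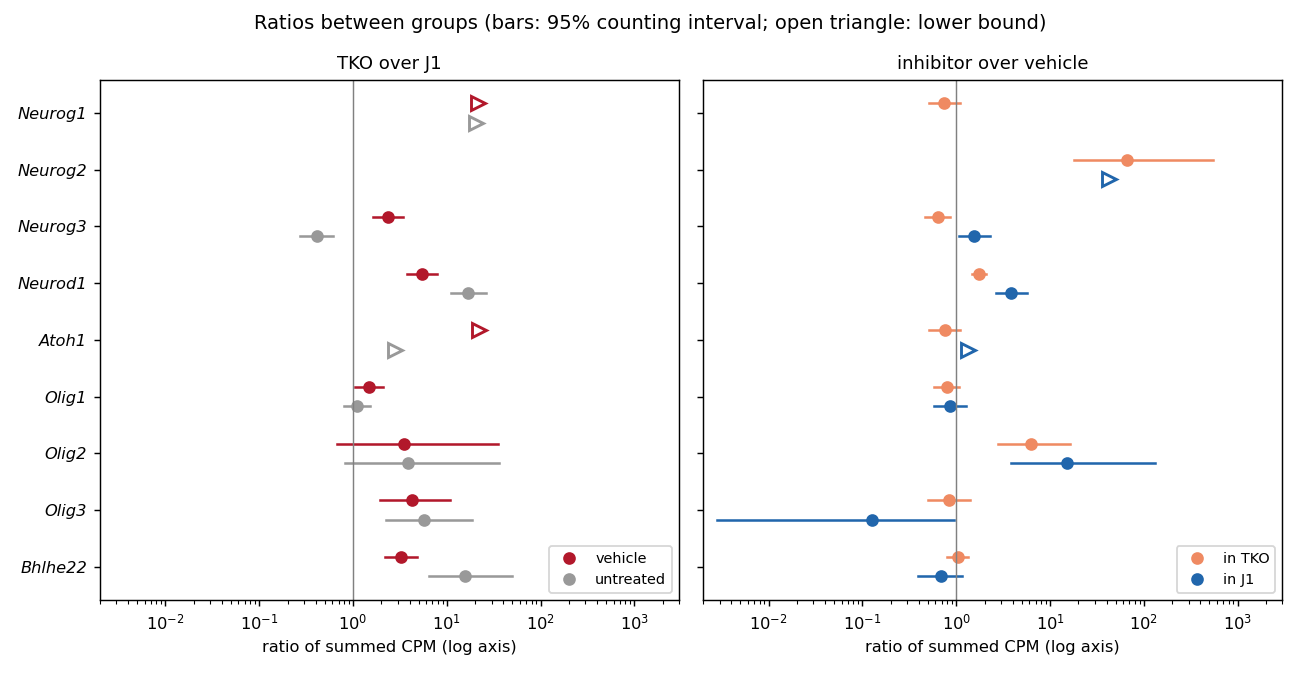
Ratio between groups for each gene (log axis), as summed reads over summed scaled library sizes, though the axis label reads summed CPM. TKO over wild type (J1) is on the left, under vehicle in red and untreated in grey. Inhibitor over vehicle is on the right, in TKO cells in orange and in wild-type cells in blue. Bars are 95% counting intervals, open triangles are lower bounds against a group with 0 reads, and a pair with both groups at or under the floor is left out. Neurog2 stands at 65.5 in TKO cells and at least 42.4 in wild-type cells on the right, and Neurog3 lies on opposite sides of 1 under vehicle and untreated on the left.

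Experiment 2 repeats the genotype comparison without vehicle, in other libraries and another table, and its levels were not compared with those of experiment 1 by a test. In untreated TKO against wild-type cells 5 of the 7 genes tested were called higher (Neurog1, Neurod1, Atoh1, Olig3 and Bhlhe22) and 1 lower (Neurog3), where 25.9% of the 16303 genes tested were called higher and 24.3% lower, 50.2% in all. Neurog1 and Atoh1 had 0 reads in untreated wild-type cells, so neither could be called lower against them in TKO or Tet1-KO TKO cells. Neurog2 and Olig2 were too scarce to be tested. Neurog2 had 1 and 2 reads in Tet1-KO TKO cells, 1 and 0 in TKO cells and 0 and 0 in wild-type cells. Olig2 had 3 and 0 reads in Tet1-KO TKO cells, 5 and 5 in TKO cells and 2 and 0 in wild-type cells. Neurog2 was thus at or under the floor of 3 reads in all 3 untreated groups. Neuron markers summed to 414 to 420 CPM in TKO and 121 to 122 CPM in wild-type libraries, neural progenitor markers to 76.5 to 80.9 CPM in TKO and 14.5 to 14.7 CPM in wild-type libraries, and trophoblast markers to 132 to 143 CPM in TKO and 46.1 to 52.4 CPM in wild-type libraries. Pluripotent stem cell markers summed to 4745 to 4851 CPM in TKO and 6331 to 6460 CPM in wild-type libraries (1 of 8 called higher, 7 lower), and endoderm markers to 22.3 to 38.6 CPM in TKO and 67.8 to 103 CPM in wild-type libraries (none of 6 tested called higher, 4 lower). The part of these markers in the results was not tested.

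Among the neurogenins, Neurog1 had 27 and 27 reads in Tet1-KO TKO cells, 51 and 29 in TKO cells and 0 and 0 in wild-type cells. It was at least 20.6-fold higher in TKO than in wild-type cells (adjusted p = 5.49e-05) and at least 11.8-fold higher in Tet1-KO TKO than in wild-type cells (adjusted p = 0.000204). Neurog3 had 14 and 8 reads in Tet1-KO TKO cells, 21 and 18 in TKO cells and 52 and 21 in wild-type cells. The wild-type group was the highest in CPM and did not overlap the others, whereas under vehicle the wild-type group was the lowest. The log2 fold change between TKO and wild type was −1.24 (SE 0.43, adjusted p = 0.03), from means of 0.589 ± 0.0113 CPM in TKO cells and 1.38 ± 0.643 CPM in wild-type cells (SD, n = 2 each). The call was lost without wild-type replicate 1 (−0.66, adjusted p = 0.346), TKO replicate 1 (−1.26, adjusted p = 0.108) or TKO replicate 2 (−1.22, adjusted p = 0.109), and in DESeq2 (adjusted p = 0.1). Between Tet1-KO TKO and wild-type cells it was −2.29 (SE 0.47, adjusted p = 0.00142), or −1.70 without wild-type replicate 1 (adjusted p = 0.0315). Fam241b, which shares exon bases with Neurog3, had a log2 fold change of −1.54 between TKO and wild-type cells.

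**Figure D4:**
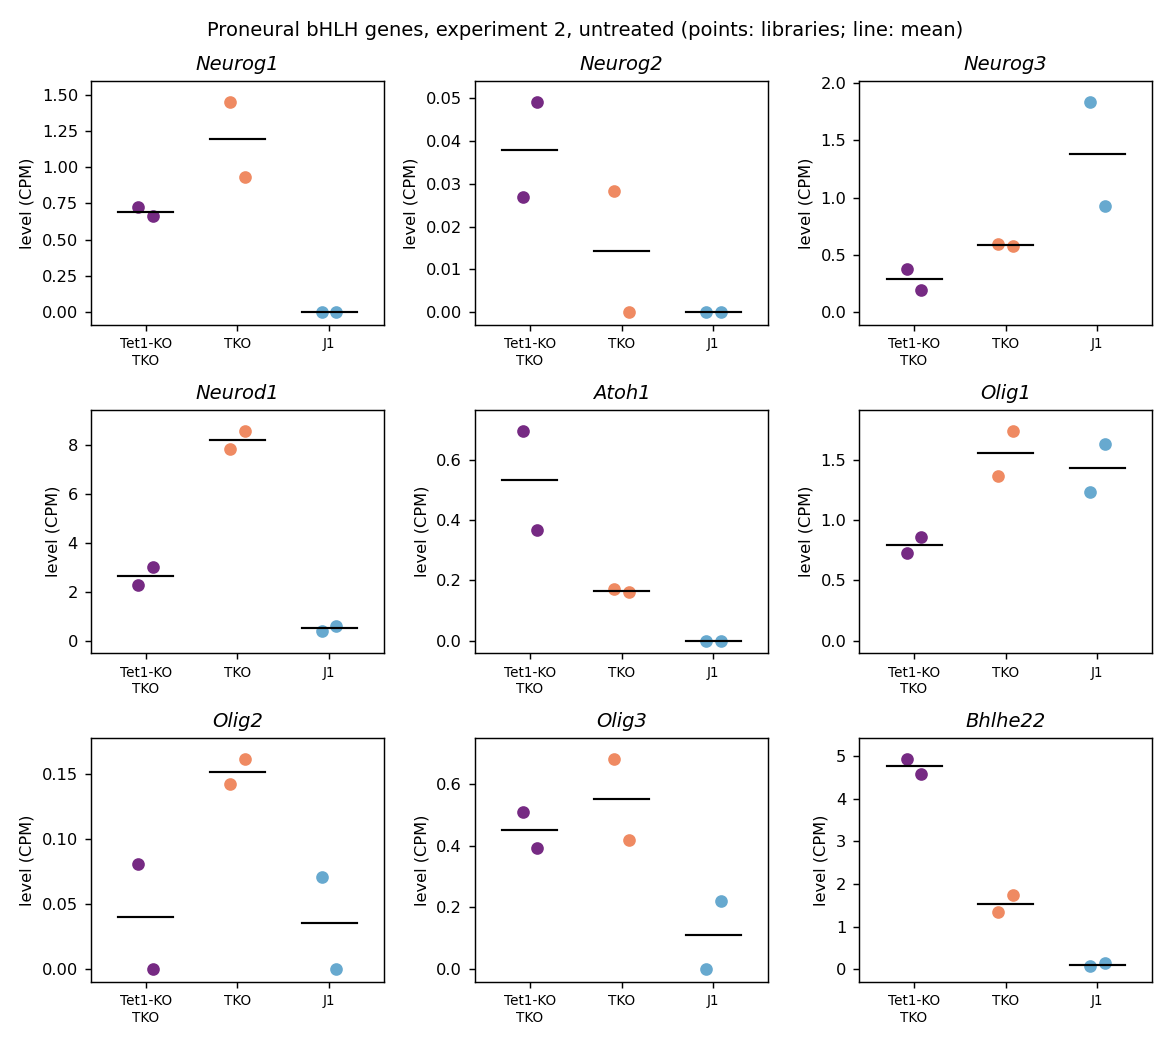
Level of each gene in CPM (vertical axes, each with its own scale) in the 6 untreated libraries of experiment 2, as points for libraries and a line for the mean of 2, in Tet1-KO TKO, TKO and wild-type (J1) cells. Neurod1 is highest in TKO cells at 8.21 CPM, Bhlhe22 is highest in Tet1-KO TKO cells at 4.76 CPM, and Neurog3 is highest in wild-type cells at 1.38 CPM.

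Neurod1 and Bhlhe22 differed in opposite directions between the Tet1-KO TKO and TKO lines. Neurod1 had 84 and 123 reads in Tet1-KO TKO cells, 276 and 266 in TKO cells and 11 and 14 in wild-type cells. Bhlhe22 had 184 and 187 reads in Tet1-KO TKO cells, 47 and 54 in TKO cells and 2 and 3 in wild-type cells. In neither gene did any 2 of the 3 groups overlap. Mean levels of Neurod1 were 2.64 ± 0.540 CPM in Tet1-KO TKO cells, 8.21 ± 0.523 CPM in TKO cells and 0.503 ± 0.162 CPM in wild-type cells (SD, n = 2 each). It was 3.09-fold lower in Tet1-KO TKO than in TKO cells (log2 fold change −1.63, SE 0.22, adjusted p = 0.000449). Its level in TKO cells was 16.7 times that in wild-type cells (4.05, SE 0.29, adjusted p = 4.92e-07). Mean levels of Bhlhe22 were 4.76 ± 0.247 CPM in Tet1-KO TKO cells, 1.54 ± 0.288 CPM in TKO cells and 0.101 ± 0.0436 CPM in wild-type cells (SD, n = 2 each). It was 3.12 times as high in Tet1-KO TKO as in TKO cells (1.63, SE 0.25, adjusted p = 0.000931). TKO cells had 15.6 times the Bhlhe22 level of wild-type cells (3.91, SE 0.44, adjusted p = 2e-05) and Tet1-KO TKO cells 48.5 times (5.54, SE 0.39, adjusted p = 3.45e-07). Each of these calls held when any single library was left out. Cerkl, which shares exon bases with Neurod1, had log2 fold changes of −0.99 for Tet1-KO TKO against TKO cells (adjusted p = 0.0978) and 0.71 for TKO against wild-type cells (adjusted p = 0.178).

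In Tet1-KO TKO against TKO cells 3 of the 7 genes tested were called, Bhlhe22 higher and Neurod1 and Olig1 lower, where 11.6% of all genes were called higher and 10.4% lower, 22% in all. Trophoblast markers summed to 463 to 638 CPM in Tet1-KO TKO libraries and 132 to 143 CPM in TKO libraries, and neuron markers to 272 to 284 CPM in Tet1-KO TKO libraries and 414 to 420 CPM in TKO libraries. Endoderm markers summed to 44.3 to 97.1 CPM in Tet1-KO TKO libraries and 22.3 to 38.6 CPM in TKO libraries, with 5 of 6 tested called higher, none lower and a median log2 fold change of 1.21. Pancreatic endocrine markers summed to 7.61 to 7.94 CPM in Tet1-KO TKO libraries and 13.9 to 15.1 CPM in TKO libraries (none of 2 tested called higher, 1 lower). Of the 8 pluripotent stem cell markers 1 was called higher and none lower. The part these markers have in the results was not tested. Olig1 had 27 and 35 reads in Tet1-KO TKO cells, 48 and 54 in TKO cells and 35 and 37 in wild-type cells, and the Tet1-KO TKO libraries were the lowest in CPM. Its log2 fold change was −0.96 against TKO cells (SE 0.31, adjusted p = 0.0459), and the call was lost without any of the 4 libraries of these groups (adjusted p = 0.0957 to 0.28) and in DESeq2 (adjusted p = 0.14). Atoh1 had 26 and 15 reads in Tet1-KO TKO cells, 6 and 5 in TKO cells and 0 and 0 in wild-type cells, with no overlap between groups. Its ratio of Tet1-KO TKO to TKO was 3.16 with an interval of 1.6 to 6.82, and the test gave no call (log2 fold change 1.65, SE 0.58, adjusted p = 0.0646), though it did with a replicate block (adjusted p = 0.0395). Against wild-type cells Atoh1 was at least 8.94-fold higher in Tet1-KO TKO cells (adjusted p = 0.000922) and at least 2.83-fold higher in TKO cells (adjusted p = 0.0189). Both bounds count wild-type cells at the floor and leave out the counting error of the mutant reads. The call in TKO cells was lost without wild-type replicate 1 (adjusted p = 0.0802), wild-type replicate 2 (adjusted p = 0.0606) or TKO replicate 1 (adjusted p = 0.0516). Neurog1 (−0.79, adjusted p = 0.158), Neurog3 (−1.05, adjusted p = 0.157) and Olig3 (−0.30, adjusted p = 0.746) were not called between Tet1-KO TKO and TKO cells.

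Against wild-type cells all 7 genes tested were called in Tet1-KO TKO cells, 5 higher and 2 lower (Neurog3 and Olig1), where 26.3% of all genes were called higher and 24.4% lower, 50.7% in all. Neurod1 had a log2 fold change of 2.41 there (SE 0.31, adjusted p = 4.26e-05). Olig1 had −0.84 (SE 0.32, adjusted p = 0.0468), a call lost in DESeq2 (adjusted p = 0.145), with the lower filter on counts (adjusted p = 0.052) and in 5 of the 6 fits that leave out 1 library, all but that without wild-type replicate 1 (adjusted p = 0.046 to 0.207). Olig3 had 19 and 16 reads in Tet1-KO TKO cells, 24 and 13 in TKO cells and 0 and 5 in wild-type cells. Its log2 fold change against wild-type cells was 2.14 in Tet1-KO TKO cells (SE 0.82, adjusted p = 0.0467) and 2.44 in TKO cells (SE 0.81, adjusted p = 0.0249). Without wild-type replicate 1, which had 0 reads, these became 1.01 (adjusted p = 0.29) and 1.31 (adjusted p = 0.169), and without replicate 2, which leaves the group at 0 reads, 6.97 and 7.27. The call in TKO cells was also lost without TKO replicate 1 (2.03, adjusted p = 0.136) and in DESeq2 (adjusted p = 0.0513). The call in Tet1-KO TKO cells was also lost without Tet1-KO TKO replicate 1 (1.94, adjusted p = 0.138), Tet1-KO TKO replicate 2 (2.32, adjusted p = 0.0736) or TKO replicate 1 (2.13, adjusted p = 0.0542), and in DESeq2 (adjusted p = 0.0913).

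Levels of different genes were compared per kilobase of exon, as mean CPM per kilobase. In TKO inhibitor cells the order was Neurod1 at 2.00, Neurog2 at 0.993, Neurog3 at 0.686, Bhlhe22 at 0.613, Olig1 at 0.537, Neurog1 at 0.475, Atoh1 at 0.387, Olig2 at 0.293 and Olig3 at 0.230. Neurog2 led in wild-type inhibitor cells at 0.985, before Neurod1 at 0.838. In wild-type vehicle cells Olig1 at 0.466 and Neurog3 at 0.453 led, Neurod1 stood at 0.213 and Bhlhe22 at 0.187, and Neurog1, Neurog2 and Atoh1 had no read. Among untreated cells the leading gene was Bhlhe22 in Tet1-KO TKO cells at 1.42, Neurod1 in TKO cells at 3.01 and Neurog3 in wild-type cells at 0.825.

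The partners, inhibitors and targets of these factors were described by 4 lists written from general knowledge, with earlier results of these data known. Over all genes tested the median log2 fold change lay between −0.01 and 0.03 in all 9 comparisons, and the shares called are those given above. The TMM scaling between libraries largely fixes that median in advance. Of 21 Notch receptors, ligands, modifiers and Hes or Hey repressors 18 were tested. In TKO vehicle against wild-type vehicle cells 14 were called higher and 3 lower, with a median log2 fold change of 1.32. The ligands Jag2 and Jag1 rose by 2.63 and 2.75 on the log2 scale. The Hes and Hey genes went both ways. Hes1 fell by 2.57 (adjusted p = 3.99e-20) and Hes6 by 0.60, while Hey1 rose by 2.08 and Hey2 by 1.01. Hes3, with 0 reads in wild-type vehicle cells, was also called higher (adjusted p = 5.18e-08). Untreated TKO cells had 12 higher and 2 lower against wild type, a median of 0.97, with Jag1 at 2.97 and Hes1 at −1.82. The inhibitor gave 4 higher and 3 lower in TKO cells (median −0.02), where Hey1 rose by 0.97. It gave 7 higher and 4 lower in wild-type cells (median 0.15), where the ligand Dll1 rose by 2.50 (SE 0.25). There Hes1 fell by 1.06 and Hes6 by 0.315, while Hey1 rose by 1.62 and Hey2 by 1.74, and Hes3 was called higher (adjusted p = 0.031). The Dll1 effect was smaller in TKO cells by 2.10 on the log2 scale (interaction −2.10, adjusted p = 5.22e-05). In Tet1-KO TKO against TKO cells 2 were higher and 5 lower, with the receptor Notch3 at 0.97 and the ligand Dll3 at −0.75.

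Of 16 listed targets of neurogenins and Atoh1, 11 were tested in experiment 1 and 9 in experiment 2, and Dll1, Dll3 and Hes6 are also in the Notch list and Nhlh1 and Neurod4 in the list of other neural bHLH genes. In TKO vehicle against wild-type vehicle cells 8 were called higher and 1 lower, with a median log2 fold change of 2.04, or 2.09 with genes silent in one group set at their bound. Insm1, a zinc finger factor of newborn neurons and endocrine cells, rose by 5.56 (SE 0.26), Gadd45g by 3.61 (SE 0.17), and Hes6 fell by 0.60 on the log2 scale. The inhibitor gave 5 higher and 1 lower in TKO cells (median 0.43), with Gadd45g at 0.99, Insm1 at −0.35 and Ebf3, a factor of differentiating neurons, at 1.47. It gave 7 higher and 1 lower in wild-type cells (median 1.55), with Ebf3 at 4.27 (SE 0.39). The difference between those effects was called for 4 of the 11, all lower in TKO cells, with Ebf3 at −2.79 (adjusted p = 0.00185). Untreated TKO cells had 5 higher and 2 lower against wild type (median 1.96), with Insm1 at 5.64 and Dll3 at 2.58, and Tet1-KO TKO against TKO cells had 2 higher and 2 lower.

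Of 11 other neural bHLH genes 4 were tested in experiment 1. In TKO vehicle against wild-type vehicle cells 1 was called higher, Bhlhe23, with a log2 fold change of 2.64 (SE 0.74, adjusted p = 0.00292). The inhibitor gave 1 call in TKO cells, Nhlh1, and 2 in wild-type cells, Nhlh1 and Bhlhe23 at 2.70. In experiment 2 only Tal2 was tested, and it was not called in TKO against wild-type cells (adjusted p = 0.274). Nhlh1, a factor of newly born neurons, had 12 and 14 reads in TKO cells with inhibitor, 0 and 0 in TKO cells with vehicle, 13 and 9 in wild-type cells with inhibitor and 0 and 0 in wild-type cells with vehicle (adjusted p = 0.000249 in TKO and 0.00034 in wild-type cells). Nhlh1 was seen in every inhibitor library and in no vehicle library. Of the 3 E proteins and 4 Id genes, in TKO vehicle against wild-type vehicle cells 2 were called higher, Id2 at 1.93 and Id3 at 1.24, and 4 lower, among them the E protein Tcf4 at −1.0. With the inhibitor Id1 fell by 1.14 in TKO cells (1 of 7 higher, 4 lower) and by 1.36 in wild-type cells (1 of 7 higher, 2 lower). Untreated, 1 was higher and 3 lower in TKO against wild-type cells, and in Tet1-KO TKO against TKO cells 2 were higher, with Id4 at 1.48 (adjusted p = 0.000857), and none lower.

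**Figure D5:**
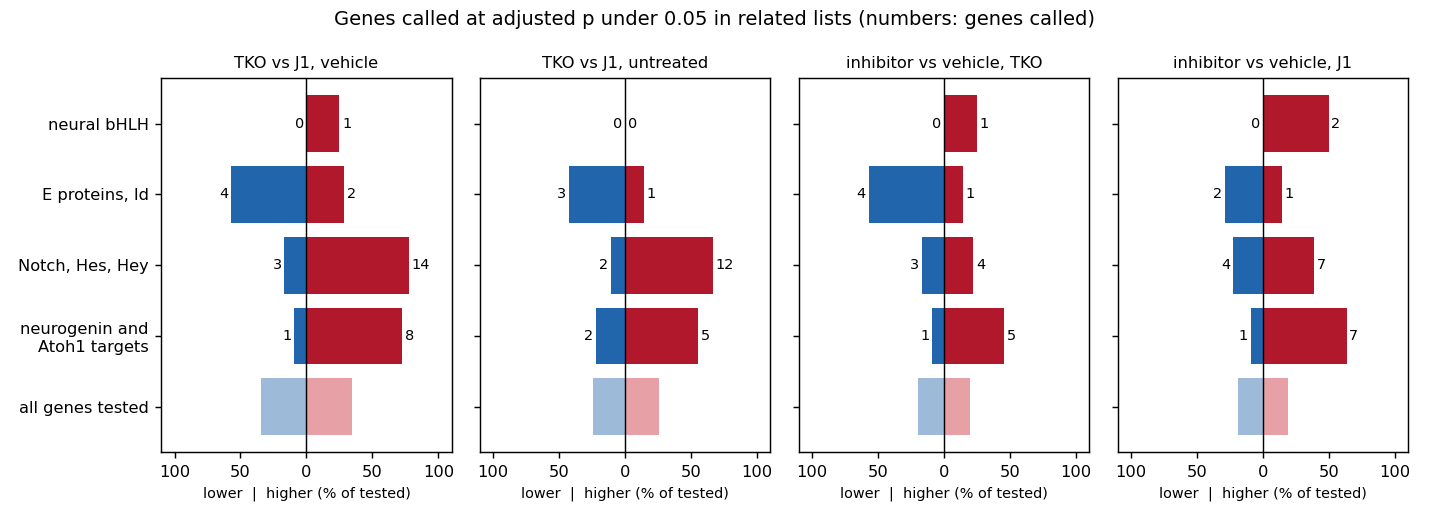
Share of the tested genes of each list called higher (red, to the right) or lower (blue, to the left) at an adjusted p under 0.05, in percent, for TKO against wild type (J1) under vehicle and untreated and for inhibitor against vehicle in TKO and in wild-type cells, with all genes tested in pale colours. The printed numbers are genes called, such as 14 higher and 3 lower of the Notch list for TKO against wild type under vehicle.

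The genes most like each member over the 8 libraries of experiment 1 were found among 14702 others, as the smallest root mean square difference of centred log2 CPM. For Neurog2 they were Colec11 (0.291) and Tmem236 (0.394), where the median over all genes was 2.49. Colec11 had 90 and 68 reads in TKO cells with inhibitor, 1 and 2 in TKO cells with vehicle, 62 and 48 in wild-type cells with inhibitor and 0 and 0 in wild-type cells with vehicle. For Neurog1 they were Xlr3a (0.219) and Magea2 (0.257), both of families with near-identical copies whose reads may be split, and for Atoh1 St8sia5 (0.215) and Irs4 (0.221). For Neurod1 they were Hmox1 (0.159), the haem oxygenase induced by oxidative stress, and Best2 (0.171), with a median of 1.17 over all genes. Hmox1 averaged 704 CPM in TKO inhibitor cells, 340 CPM in TKO vehicle cells, 295 CPM in wild-type inhibitor cells and 74.5 CPM in wild-type vehicle cells, far above Neurod1 in level but in the same order. The nearest genes were Minar1 (0.137) for Neurog3, BC051019 (0.138) for Bhlhe22, Prss36 (0.0975) for Olig1, Ermap (0.356) for Olig2 and Chst2 (0.257) for Olig3.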

How the data were processed

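Poly(A) RNA libraries made with the NEBNext Ultra kit were sequenced on an Illumina HiSeq instrument, per the labels' protocols. The deposited values are counts, whole reads per Ensembl gene and library with no normalization, in 2 tables. Per the submitters' processing notes, reads were processed with TopHat2 2.0.2, Bowtie 0.12.8 and HTSeq 0.5.3p9 on the build mm9. The strand setting and the annotation's release are unknown here. Exon lengths and shared exon bases were taken from a GENCODE annotation on a build other than mm9, so they may differ from those used in counting. Symbols matched 32919 of 37991 IDs, and IDs without one held 0.482% to 0.85% of a library's counts. Each table was fitted by itself in edgeR 4.0.16 (R 4.3.3, limma 3.58.1) with TMM scaling, filterByExpr (minimum count 10, minimum total 15) and 1 quasi-likelihood fit over all its groups without covariates, which left 16711 genes and 4 residual degrees of freedom in experiment 1 and 16303 genes and 3 in experiment 2. Two-sided tests were adjusted by Benjamini-Hochberg over all genes tested. CPM values were scaled by TMM. The SE is the fold change divided by the root of the F statistic and is approximate.

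Where a group had 0 reads, ratios were taken against 3 reads in the group's summed libraries, which gives a lower bound. That bound leaves out the counting error of the other group, so it is too high where that group had few reads. Ratios compare a group's summed reads over its summed scaled library sizes, so they can differ from ratios of mean CPM. They carry 95% binomial counting intervals. Reads lacked molecular identifiers, so intervals and floors cover counting error alone. There were 8 planned comparisons and 1 added. The members and the 12 gene lists were chosen with earlier results of these data known. Named list genes are up to 2 called per direction with the smallest p and no overlap between groups, with examples taken from these. Further Hes and Hey genes are named beside Hes1 outside this rule. One listed gene is not reported here. Nothing states that the numbered replicates came from separate cultures, so the p-values reflect only the spread between these libraries, which may be technical. Replicates of a group differed by more than sampling noise (chi-square per gene 1.81 to 37.4). The fitting procedure was run on data simulated with a common dispersion, which is simpler than the spread of these libraries, and no result here rests on that run. Alternatives were DESeq2 1.42.0, its size factors in edgeR, library size only, no filter, a lower filter (minimum count 3, total 5), a replicate block and each library left out.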

Additional observations from a re-analysis of the deposited data

Results flagged for a closer look

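The inhibitor's effect on Neurod1 differed between genotypes by the interaction test (adjusted p = 0.0468, edgeR quasi-likelihood), with log2 fold changes of 0.80 in TKO cells and 1.94 in wild-type cells. That call was lost in 7 of the 8 fits that leave out 1 library. It was also lost in DESeq2, with library size only and with a replicate block. Neurog3 differed between TKO and wild-type cells by −1.24 on the log2 scale when untreated and by 1.23 under vehicle, with every library of one group on the same side each time. The untreated call was lost without wild-type replicate 1, TKO replicate 1 or TKO replicate 2, and in DESeq2. Neurog3 also shares exon bases with Fam241b. The difference between the experiments was not tested, since the tables were fitted apart. With the inhibitor Neurog3 was lower in both TKO inhibitor libraries than in TKO vehicle libraries and higher in both wild-type inhibitor libraries than in wild-type vehicle libraries (interaction −1.30, adjusted p = 0.0692). Atoh1 had the same pair of directions (interaction −4.56, adjusted p = 0.182), a value that depends on the prior count because wild-type vehicle cells had 0 reads.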

How the results depend on the processing

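Of 75 values (gene by comparison) 42 were called, and 32 of these were called under every alternative run, among them the 6 calls of TKO against wild type under vehicle and the 3 of the inhibitor in wild-type cells. Calls that depended on a setting or on 1 library are given with the results above. The number of members with a called interaction was 1, against 0 with library size only, in DESeq2 and with a replicate block (3 at an unadjusted p under 0.05 in each of these and in edgeR), 2 without a filter, where Neurog3 was also called (adjusted p = 0.0317), and 0 to 1 with a library left out. All genes with a called interaction numbered 650, 415 in DESeq2 and 304 to 913 with a library left out. With a library left out, 2 to 4 members were called for the inhibitor in TKO cells, 3 to 6 in untreated TKO against wild-type cells, and 1633 to 4510 genes in Tet1-KO TKO against TKO cells, where 3584 were called. Some uncalled log2 values changed sign. Neurog3 in TKO against wild-type cells under inhibitor was −0.07, 0.08 with library size only and −0.35 to 0.18 with a library left out. The other ranges with a library left out were −0.29 to 0.31 for Neurog2 in that comparison, −0.26 to 0.40 for Bhlhe22 with the inhibitor in TKO cells, −4.12 to 0.032 for Neurog2, −0.31 to 0.18 for Olig1 and −4.39 to 0.51 for Olig2 in the interaction, −0.086 to 0.32 for Olig1 in untreated TKO against wild-type cells, and −0.59 to 0.10 for Olig3 in Tet1-KO TKO against TKO cells. The cause of these changes was not tested. Neurog3 in TKO inhibitor against wild-type vehicle cells was called with library size only (0.71, adjusted p = 0.0381), which made 8 members called there. In that comparison 7703 genes were then called higher and 4830 lower, against 6612 and 6125 with TMM. Between the genotypes under inhibitor it was 7349 and 4164, against 6046 and 5689. For the inhibitor in wild-type cells it was 3081 and 3239, against 3171 and 3120. Leaving out TKO vehicle replicate 2 left Neurog2, and leaving out wild-type inhibitor replicate 1 left Neurog1, at 0 reads in both groups compared, so no value was had. Without a filter Neurog2 and Olig2 could be tested in experiment 2, with adjusted p-values of 0.389 to 1. Same-numbered replicates had correlated deviations of −0.0345 to 0.0384 in experiment 1 and 0.111 to 0.236 in experiment 2, where all 3 pairs of groups were above 0.1. The labels do not say that a number marks a shared batch, and with only 2 numbers this was not settled. In experiment 2 the replicate block called 4498 genes in Tet1-KO TKO against TKO cells, against 3584 without it, and 8790 in TKO against wild-type cells, against 8187. It changed the calls of Neurog3 (inhibitor in TKO cells, adjusted p = 0.0553), Neurod1 (interaction, adjusted p = 0.0545) and Atoh1 (Tet1-KO TKO against TKO, adjusted p = 0.0395). Depth limits every value that rests on a group with fewer than 10 reads, as Neurog1, Neurog2, Atoh1, Olig2 and Olig3 had in both experiments and Bhlhe22 in experiment 2.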
